A study of Mus musculus with 2 samples.

Results

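Among brain cells sorted for the microglial surface profile CD11b high and CD45 low, some barcodes carried RNA of brain endothelial cells, the cells that line cerebral blood vessels. Endothelial barcodes were selected by their RNA: among barcodes of 500 genes or more with a mitochondrial share of no more than 10% of UMIs (unique molecular identifiers, 1 per captured mRNA), those with UMIs of at least 4 of the 8 genes Cldn5, Flt1, Ly6c1, Cdh5, Kdr, Egfl7, Slco1a4 and Cxcl12. They numbered 188 of 2301 kept barcodes in the Hk2 cKO library and 149 of 2826 in the Hk2 fl/fl library, 337 of 5127 in all.

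Both libraries held brain cells of C57BL/6 mice at day 3 of microglial repopulation, captured with the 10x 3' chemistry. In the Hk2 cKO mice (Cx3cr1CreER::hk2 fl/fl) a tamoxifen-inducible Cre is driven by Cx3cr1, a gene of microglia and monocyte-lineage cells, and both copies of Hk2 are floxed. The Hk2 fl/fl mice carry the floxed Hk2 alleles without the Cre. The protocol gives 100 µg tamoxifen intraperitoneally on consecutive days after birth or as indicated. The mice's age, how many were pooled, how microglia were depleted and whether the Hk2 fl/fl mice received tamoxifen are not given in the sources used here. Each genotype had 1 library, so the differences between them carry no replicate check and were not tested. All intervals are at the 95% level, exact Poisson ones for counts and Clopper-Pearson ones for shares, and they reflect counting error alone.

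Brain endothelial cells form the blood-brain barrier. Tight junctions, built on claudin 5 (Cldn5), seal the cells to each other, so that nutrients cross by transporters such as the glucose carrier GLUT1 (Slc2a1), while efflux pumps return many drugs to the blood. Wnt ligands acting through Fzd4 and its co-receptors keep this programme on, and VEGF receptors (Flt1, Kdr) and vascular endothelial cadherin (Cdh5) are shared with the endothelium of other organs. Endothelial cells also answer interferon and cytokines in the blood by raising antiviral genes and leukocyte adhesion molecules.

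The number of the 8 genes detected had a second peak at its upper end. None of them was detected in 65.1% of kept Hk2 cKO and 65.0% of kept Hk2 fl/fl barcodes. In the Hk2 cKO library 49, 41, 20, 25 and 53 barcodes had 4, 5, 6, 7 and 8 of the genes, and in the Hk2 fl/fl library 55, 32, 13, 22 and 27 did. At the threshold itself the evidence was thin. The 49 Hk2 cKO barcodes with 4 genes held a median of 6 UMIs of the 8 genes together among a median of 16915 UMIs, and the 55 Hk2 fl/fl barcodes also held a median of 6, among 19394. Just below it, the 91 Hk2 cKO and 118 Hk2 fl/fl barcodes with 3 genes held a median of 4 UMIs each. Barcodes with all 8 genes held medians of 109 UMIs in Hk2 cKO and 70 in Hk2 fl/fl.

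**Figure D1:**
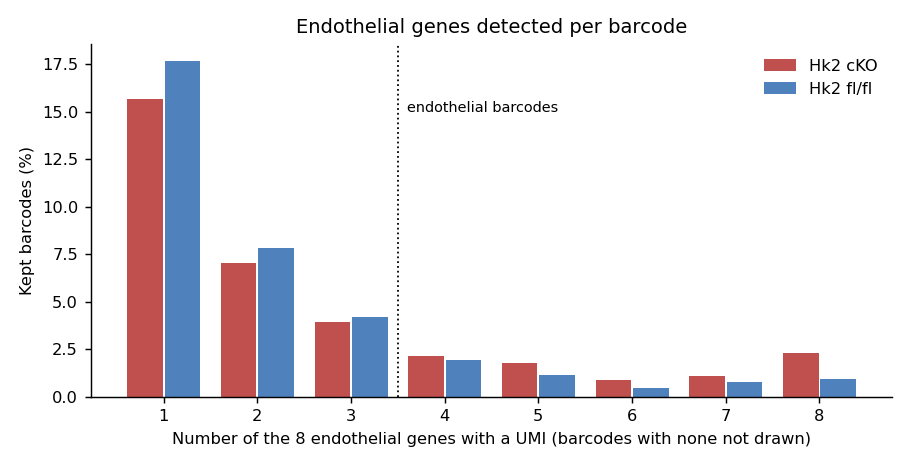
Share of kept barcodes (%, vertical axis) by the number of the 8 endothelial genes with at least 1 UMI (horizontal axis), Hk2 cKO left and Hk2 fl/fl right in each pair. Bars right of the dotted line are the endothelial barcodes, and those with all 8 genes made up 2.30% of Hk2 cKO and 0.955% of Hk2 fl/fl barcodes.

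The label held for a minority of the selected barcodes. The summed level of the 8 genes, in counts per 1000000 UMIs of a barcode (CPM), ran from 78.0 to 33416 in Hk2 cKO barcodes and from 48.7 to 29176 in Hk2 fl/fl barcodes. In all, 3 ranges were set after these values were seen: under 2000 CPM (trace), 2000 to 8000 CPM, and 8000 CPM or more, called endothelial-rich. They are ranges of a score and not cell types: 10 Hk2 cKO and 6 Hk2 fl/fl barcodes lay between 6400 and 10000 CPM. Endothelial-rich barcodes numbered 57 in Hk2 cKO, which is 2.48% (1.88 to 3.20) of its kept barcodes, and 29 in Hk2 fl/fl, which is 1.03% (0.688 to 1.47). Trace barcodes numbered 105 in each library, and the middle range held 26 Hk2 cKO and 15 Hk2 fl/fl barcodes.

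Trace barcodes carried a microglial profile. The level of their 4 microglial check genes (Fcrls, Siglech, Tmem119 and the purinergic receptor P2ry12) was 2362 CPM in Hk2 cKO and 2363 CPM in Hk2 fl/fl. That was 83.8% and 86.8% of the level in microglial barcodes of the same library, defined as barcodes with at least 3 of these 4 genes and at most 1 of the 8 endothelial genes (1637 Hk2 cKO, 2066 Hk2 fl/fl). Trace barcodes were also deep, with medians of 19543 UMIs in Hk2 cKO and 20843 in Hk2 fl/fl, against 12010 and 9936 in microglial barcodes. The rules favour this, since at least 4 of the 8 genes at a low level are detected more readily in deep barcodes. All 4 check genes were detected in 96 of the 105 Hk2 cKO and 93 of the 105 Hk2 fl/fl trace barcodes. Whether these barcodes are doublets or microglia with free endothelial RNA cannot be told apart here, and no doublets were removed.

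Endothelial-rich barcodes held less of that profile. The check genes summed to 451 CPM in Hk2 cKO (16.0% of the microglial level, 13.5 to 18.9) and to 680 CPM in Hk2 fl/fl (25.0%, 20.3 to 30.4). The share depended on the genes used: the 22 microglia and macrophage genes summed to 25.2% of their microglial level in Hk2 cKO and 32.4% in Hk2 fl/fl. Single genes of that list ran from 0% to 48.6% in Hk2 cKO and from 7.90% to 58.3% in Hk2 fl/fl, with Aif1 highest in both. Of the endothelial-rich barcodes, 40 of 57 in Hk2 cKO and 15 of 29 in Hk2 fl/fl had at most 2 UMIs of the check genes, and 18 and 7 had none. They were shallower, with medians of 5345 UMIs and 2217 genes in Hk2 cKO and 4612 UMIs and 2047 genes in Hk2 fl/fl. Their median mitochondrial share was 6.88% in Hk2 cKO and 6.41% in Hk2 fl/fl, against 2.67% and 2.85% in microglial barcodes. The surface markers of the sort were low at the RNA level: Ptprc, which encodes CD45, had 0 UMIs in Hk2 cKO and 4 in Hk2 fl/fl endothelial-rich barcodes, and Itgam, which encodes CD11b, had 17 and 14. Itgam stood at 54.8 CPM in Hk2 cKO and 97.1 CPM in Hk2 fl/fl endothelial-rich barcodes, and at 481 and 416 CPM in microglial barcodes.

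**Figure D2:**
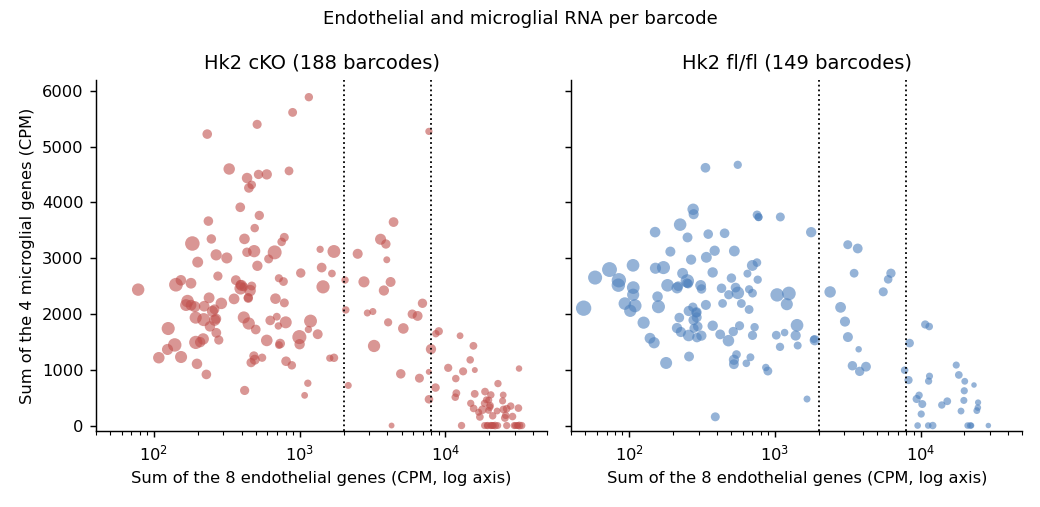
Each point is 1 endothelial barcode, Hk2 cKO left and Hk2 fl/fl right, with the summed level of the 8 endothelial genes (CPM, log axis) against that of the 4 microglial check genes (CPM). Point area grows with the barcode's UMIs, and dotted lines mark 2000 and 8000 CPM. Points right of 8000 CPM, 57 in Hk2 cKO and 29 in Hk2 fl/fl, lie near the bottom, and the 105 trace barcodes of each library lie at 541 to 5887 CPM of microglial genes in Hk2 cKO and at 156 to 4674 CPM in Hk2 fl/fl.

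A low level of endothelial RNA was present in barcodes with markers of other cells. Cldn5 (chr16:18776847-18778262, plus strand, GRCm38) was detected in 57 of 57 Hk2 cKO and 28 of 29 Hk2 fl/fl endothelial-rich barcodes. In neutrophil-marker barcodes, which should lack it, it was detected in 18.5% of 81 in Hk2 cKO and 9.59% of 73 in Hk2 fl/fl, at deeper medians of 10833 and 9208 UMIs. The 8 genes summed to 60.9 CPM in Hk2 cKO and 38.3 CPM in Hk2 fl/fl neutrophil-marker barcodes. Of these barcodes 5 in Hk2 cKO and 2 in Hk2 fl/fl were also endothelial barcodes. Their 4 microglial check genes stood at 46.7% and 46.2% of the microglial level. As a group they therefore held RNA of other cells, and these values do not measure neutrophils alone.

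The endothelial-rich barcodes carried a capillary profile of the brain. Beyond the 8 genes used to choose them, 30 other pan-endothelial genes summed to 13508 CPM in Hk2 cKO and 11453 CPM in Hk2 fl/fl, against 752 and 759 CPM in microglial barcodes. These values describe the selected barcodes and were not tested. The angiopoietin receptor Tek had 223 and 125 CPM in Hk2 cKO and Hk2 fl/fl, and the transcription factor Sox17 310 and 229 CPM. Of the capillary genes, 14 on the list, the matrix proteoglycan gene Spock2 had 1790 CPM in Hk2 cKO and 1304 CPM in Hk2 fl/fl. The carbonic anhydrase Car4 had 551 and 444 CPM, and Mfsd2a, which carries omega-3 lipids across the barrier, had 413 and 326 CPM. All 57 Hk2 cKO and 26 of 29 Hk2 fl/fl endothelial-rich barcodes had UMIs of at least 5 of the 14 capillary genes, Cxcl12 of the rule among them, against 11.5% of Hk2 cKO and 8.95% of Hk2 fl/fl microglial barcodes. Thinned to 2000 UMIs each, which left out 1 Hk2 cKO and 3 Hk2 fl/fl endothelial-rich barcodes, 48 of 56 and 16 of 26 did, against 0.0616% and 0% of microglial barcodes.

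Arterial genes were present at a lower level. The 18 on the list summed to 838 CPM in Hk2 cKO and 846 CPM in Hk2 fl/fl endothelial-rich barcodes, against 124 and 106 CPM in microglial barcodes. Tm4sf1, a membrane protein gene of endothelium, gave 490 CPM of this in Hk2 cKO and 583 CPM in Hk2 fl/fl, and Alpl, an alkaline phosphatase gene, gave 74.2 and 41.6 CPM. At least 3 arterial genes were detected in 17 of 57 Hk2 cKO and 7 of 29 Hk2 fl/fl endothelial-rich barcodes, and in 0.733% and 0.629% of microglial barcodes. Thinned to 2000 UMIs, 6 of 56 Hk2 cKO and 1 of 26 Hk2 fl/fl endothelial-rich barcodes had them. Of the 18 arterial genes 13 had UMIs in Hk2 cKO and 12 in Hk2 fl/fl. The arterial genes Efnb2 and Sema3g had 16 and 12 UMIs in Hk2 cKO, and 2 and 4 in Hk2 fl/fl. Several other markers of larger vessels had few or no UMIs. Of those given next, all but Bmx were named after their values were seen. The arterial genes Gkn3 and Gja5 and the venous genes Selp and Ackr1 had no UMI in either library. That allows up to 3 UMIs, or 9.67 CPM in Hk2 cKO and 20.8 CPM in Hk2 fl/fl. The arterial kinase Bmx had 2 and 1 UMIs in Hk2 cKO and Hk2 fl/fl, the venous regulator Nr2f2 4 and 0, and von Willebrand factor (Vwf) 6 and 10. The venous list was otherwise no marker here, since microglial barcodes gave it 2671 CPM in Hk2 cKO and 2513 CPM in Hk2 fl/fl, above the 1938 and 1769 CPM of endothelial-rich barcodes. The 16 tip cell genes, which mark sprouting vessels, summed to 1183 CPM in Hk2 cKO and 971 CPM in Hk2 fl/fl, against 560 and 528 CPM in microglial barcodes. Cd34 gave most of this, at 677 and 659 CPM, and Dll4, a Notch ligand, gave 80.6 and 62.4 CPM. Esm1 had no UMI, Apln had 0 and 1, and Angpt2 had 5 and 1. At least 3 tip cell genes were detected in 33 of 57 Hk2 cKO and 8 of 29 Hk2 fl/fl endothelial-rich barcodes, and in 42.8% and 31.1% of microglial barcodes. Thinned to 2000 UMIs, 11 of 56 Hk2 cKO and 3 of 26 Hk2 fl/fl endothelial-rich barcodes had them, against 1.72% and 1.07% of microglial barcodes. Plvap, a component of the diaphragms of leaky fenestrated vessels, had 0 UMIs in Hk2 cKO and 4 in Hk2 fl/fl, all 4 in 1 barcode. The 7 lymphatic genes summed to 61.3 CPM in Hk2 cKO and 48.6 CPM in Hk2 fl/fl. Flt4, a VEGF receptor gene, gave 17 of the 19 UMIs in Hk2 cKO and all 7 in Hk2 fl/fl, while Prox1 and Lyve1 had none.

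Markers of neighbouring cells were sparse. The 16 mural cell genes summed to 52 UMIs in Hk2 cKO (168 CPM, 125 to 220) and 13 in Hk2 fl/fl (90.2 CPM, 48.0 to 154). Of these, 31 and 9 UMIs were Rgs5, and the pericyte potassium channel gene Kcnj8 had none. The 12 astrocyte genes summed to 129 and 62.4 CPM in Hk2 cKO and Hk2 fl/fl, and the 10 fibroblast genes to 1 UMI in each library. The 10 oligodendrocyte genes summed to 432 and 305 CPM, and Mal alone gave 397 CPM in Hk2 cKO and 243 CPM in Hk2 fl/fl. Neutrophil genes had 4 UMIs in Hk2 cKO and 6 in Hk2 fl/fl. One Hk2 cKO barcode stood apart: it held 531 of the 532 UMIs of Ttr, the transthyretin gene of the choroid plexus epithelium, and UMIs of 5 of 8 choroid plexus genes.

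**Figure D3:**
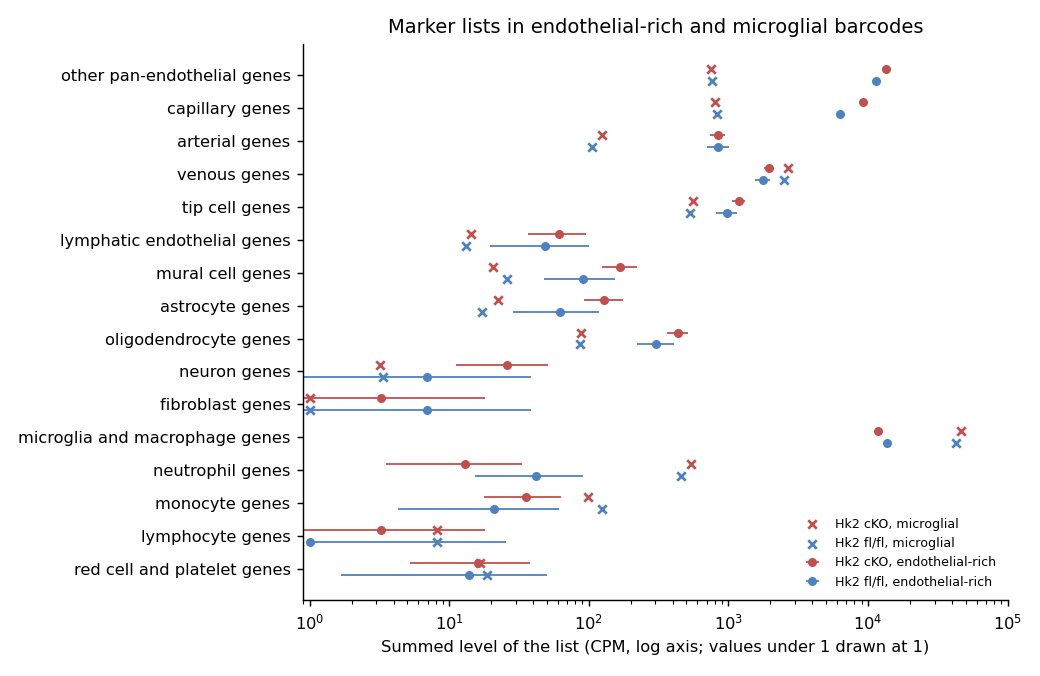
Summed level of each marker list (CPM, log axis) in endothelial-rich barcodes (circles with 95% counting intervals) and in microglial barcodes (crosses), Hk2 cKO above Hk2 fl/fl in each row. Pan-endothelial and capillary lists lie above the crosses, for example 9190 against 799 CPM for capillary genes in Hk2 cKO, and the circles of fibroblast, neutrophil and lymphocyte lists lie at 41.6 CPM or less. Values under 1 CPM are drawn at 1.

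The genotypes were compared first over all barcodes of the rule, with counts summed per library and expressed as CPM. Genes with at least 20 UMIs over both libraries counted as measured. A gene was called different when its CPM differed by more than 1.5-fold after adding 1 CPM and the intervals did not overlap. In endothelial barcodes 407 of 11082 measured genes (3.67%) were higher in Hk2 cKO and 141 (1.27%) were lower. The 8 genes of the rule chose these barcodes, so their levels are a description: Cldn5 had 786 CPM in Hk2 cKO and 393 CPM in Hk2 fl/fl, and Cxcl12 had 427 and 156 CPM. Of 38 endothelial-enriched genes, at least 4-fold above microglial barcodes in each library after adding 10 CPM, 34 were higher, none was lower and the median log2 ratio of Hk2 cKO over Hk2 fl/fl was 0.98. Without the 7 rule genes among them, 27 of 31 were higher and the median was 0.95. The median over all measured genes was -0.03.

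The selected barcodes held unlike mixtures in the 2 libraries. As a description of the choice, and not as support for a difference, the 8 genes that chose them summed to 2599 CPM in Hk2 cKO and 1222 CPM in Hk2 fl/fl. Endothelial-rich barcodes were 30.3% of the endothelial barcodes in Hk2 cKO and 19.5% in Hk2 fl/fl. Relative to the summed endothelial-enriched genes, 0 of these 38 genes was called in either direction. That scaling makes the sum of the same 38 genes equal in both libraries, so the count is largely set by it and decides nothing. In sums over all selected barcodes more endothelial cells and more endothelial RNA per cell cannot be told apart. The neutrophil list moved too, at 1951 CPM in Hk2 cKO and 237 CPM in Hk2 fl/fl, where 5 and 2 of the endothelial barcodes also had at least 4 of 8 neutrophil genes. The part of these differences in other results was not tested.

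Hk2 itself was at the floor in endothelial-rich barcodes. Hk2 (chr6:82725025-82774454, minus strand, GRCm38) encodes hexokinase 2, which starts glycolysis by phosphorylating glucose. Over all endothelial barcodes it had 38.7 CPM in Hk2 cKO and 156 CPM in Hk2 fl/fl, a log2 ratio of -1.98, and in microglial barcodes 46.8 and 167 CPM. In endothelial-rich barcodes it had 2 UMIs in Hk2 cKO and 3 in Hk2 fl/fl, at or under the floor of 3 UMIs, so no ratio is given. Their microglial RNA alone would bring 7.50 CPM in Hk2 cKO and 41.7 CPM in Hk2 fl/fl, at 16.0% and 25.0% of the microglial level, or 11.8 and 54.0 CPM at the shares of the 22-gene list. Measured were 6.45 CPM in Hk2 cKO and 20.8 CPM in Hk2 fl/fl. Hk1, the widely expressed hexokinase, had 11 UMIs in Hk2 cKO and 3 in Hk2 fl/fl.

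Within the endothelial-rich barcodes fewer genes were called. These barcodes held 310110 UMIs in Hk2 cKO and 144157 in Hk2 fl/fl, against 3589334 and 3393305 over all endothelial barcodes. On simulated counts 48% of 2-fold increases were called at this depth and 84% at the larger one, so the called shares are not directly comparable. Of 3562 measured genes, 64 (1.8%) were higher in Hk2 cKO and 48 (1.35%) were lower, so that 57.1% of the calls were higher. With TMM scaling, which compares libraries through the bulk of their genes, 69.3% of the calls were higher. Of 416 endothelial-enriched genes 25 were higher and 1 was lower, the median log2 ratio was 0.28, and 289 of the 416 ratios were above 0. This is another gene set than the 38 enriched genes of all endothelial barcodes, so the 2 medians are not directly comparable. Without the 8 rule genes 22 of 408 were higher, 1 was lower and the median was 0.27. The 8 genes of the rule, which also set the limit of this range, summed to 19867 CPM in Hk2 cKO and 14186 CPM in Hk2 fl/fl. Per barcode they ran from 8554 over a median of 20287 to 33416 CPM in Hk2 cKO and from 8268 over 15242 to 29176 CPM in Hk2 fl/fl, so the ranges overlapped. Relative to the summed endothelial-enriched genes, a scaling that makes the sum of these 416 equal in both libraries, 6 of them were higher and 11 lower.

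Among endothelial-enriched genes the called ones included secreted, matrix and junction genes. Cxcl12, a chemokine gene that retains leukocytes at the vessel wall, had 1071 UMIs in Hk2 cKO (3454 CPM, 3250 to 3667) and 268 in Hk2 fl/fl (1859 CPM, 1643 to 2096), a ratio of 1.86 (1.62 to 2.13). It was detected in 54 of 57 and 28 of 29 barcodes, and since it is one of the 8 genes that chose the barcodes, its difference is a description. Of the genes outside the rule, several had larger ratios. Ndnf had 161 CPM in Hk2 cKO and 41.6 CPM in Hk2 fl/fl. Eogt, which adds O-linked N-acetylglucosamine to secreted proteins and Notch receptors, had 255 and 83.2 CPM. Ccn1, a matrix protein of vessel remodelling, had 316 and 125 CPM, in 18 of 57 and 9 of 29 barcodes. Heg1, a receptor of endothelial junction assembly, had 184 and 76.3 CPM. The basement membrane organizer Agrn had 197 and 83.2 CPM. Uaca was the single lower gene, at 123 CPM in Hk2 cKO and 271 CPM in Hk2 fl/fl.

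Barrier transporters leaned towards Hk2 cKO. Of 29 on the list 27 were measured, 25 had ratios above 0, 6 were higher, none was lower and the median log2 ratio was 0.50, against 1.8% higher, 1.35% lower and a median of -0.01 over all measured genes. Without Slco1a4, which chose the barcodes, 5 of 26 were higher and the median was 0.47. Slc2a1 had 520 UMIs in Hk2 cKO (1677 CPM, 1536 to 1827) and 157 in Hk2 fl/fl (1089 CPM, 925 to 1273), a ratio of 1.54 (1.29 to 1.85). The organic anion carriers Slco1a4 and Slco1c1, which take up thyroid hormone, had 1400 and 996 CPM in Hk2 cKO, and 867 and 638 CPM in Hk2 fl/fl. Slc22a8, another organic anion carrier, had 322 CPM in Hk2 cKO and 173 CPM in Hk2 fl/fl. Tfrc, the transferrin receptor that imports iron, had 306 and 139 CPM, and the zinc importer Slc39a10 had 490 and 257 CPM. The drug pump Abcb1a, at 796 CPM in Hk2 cKO and 562 CPM in Hk2 fl/fl, and Abcg2, at 529 and 388 CPM, were not called. Slc16a1, the lactate carrier MCT1, had 258 and 319 CPM and was not called. Relative to the summed endothelial-enriched genes, a scaling that lowered the median of all measured genes to -0.31, none of the 6 was called, Slc2a1 then having a log2 ratio of 0.32 and Tfrc 0.83.

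**Figure D4:**
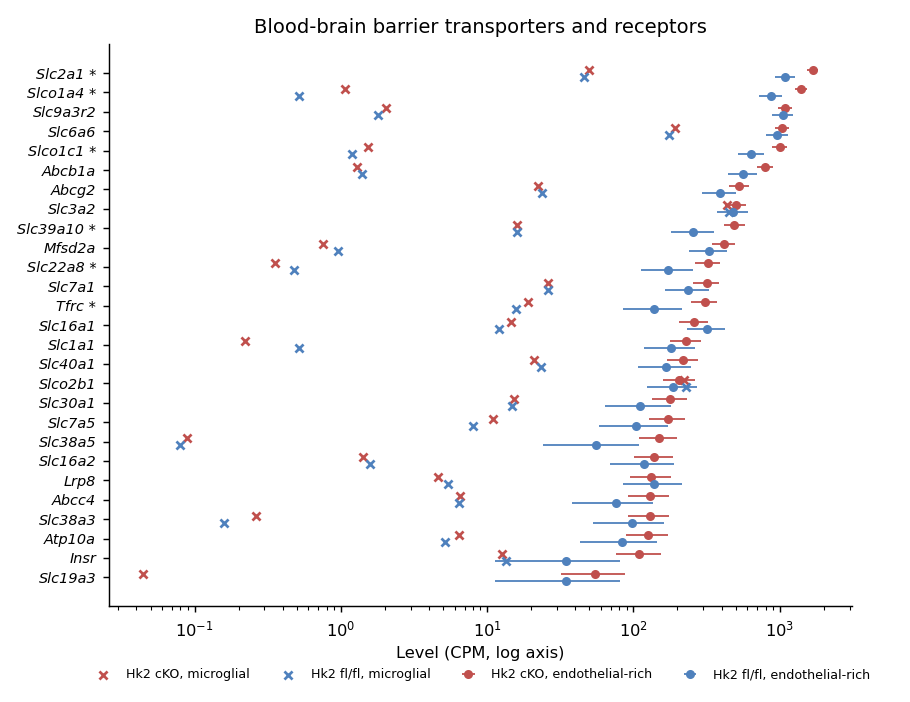
Level (CPM, log axis) of the 27 measured barrier transporters and receptors in endothelial-rich barcodes (circles with 95% counting intervals) and microglial barcodes (crosses, not drawn where the level is 0), Hk2 cKO above Hk2 fl/fl in each row. Asterisks mark the 6 genes called higher in Hk2 cKO, among them Slc2a1 at 1677 against 1089 CPM.

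Interferon response genes had the largest median shift of the lists with at least 5 measured genes in endothelial-rich barcodes. Of 38 genes 28 were measured, 27 had ratios above 0, 10 were higher (Ly6c1 of the rule among them), none was lower and the median log2 ratio was 0.76, against 1.8% higher and 1.35% lower over all measured genes. Without Ly6c1, 9 of 27 were higher and the median was 0.76. Isg15, a ubiquitin-like antiviral modifier, had 100 UMIs in Hk2 cKO (322 CPM, 262 to 392) and 9 in Hk2 fl/fl (62.4 CPM, 28.5 to 119), a ratio of 5.17 (2.61 to 11.6). It was detected in 33 of 57 Hk2 cKO and 7 of 29 Hk2 fl/fl barcodes, with at most 10 and 3 UMIs in 1 barcode. Ifit3, which binds viral RNA with its partners, had 32 UMIs in Hk2 cKO and 1 in Hk2 fl/fl, a ratio of 14.9 with a counting interval of 2.48 to 606. The GTPase Iigp1 had 28 UMIs in Hk2 cKO and 2 in Hk2 fl/fl, a ratio of 6.51 (1.64 to 56.4). The antiviral membrane protein Ifitm3 was abundant in both, at 1693 CPM in Hk2 cKO and 1047 CPM in Hk2 fl/fl. Ifitm2, at 345 and 444 CPM, was the 1 measured gene with a ratio below 0 and was not called.

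The same genes differed between the microglial barcodes. There the 28 genes had a median log2 ratio of 0.98, and 25 of them had ratios above 0. Isg15 had 100 CPM in Hk2 cKO and 22.8 CPM in Hk2 fl/fl microglial barcodes. At the microglial share of the endothelial-rich barcodes this would bring 16.0 of the 322 CPM in Hk2 cKO and 5.71 of the 62.4 CPM in Hk2 fl/fl. At the shares of the 22-gene list it would bring 25.2 CPM in Hk2 cKO and 7.40 CPM in Hk2 fl/fl. Such estimates are rough, since for Hk2 and Icam1 in Hk2 fl/fl they exceeded the measured level. The part of microglial RNA in the Isg15 difference was not tested. Iigp1 was higher in endothelial-rich than in microglial barcodes of Hk2 cKO, at 90.3 against 5.87 CPM. In Hk2 fl/fl it had 13.9 against 2.46 CPM, but the 13.9 CPM came from 2 UMIs, under the floor of 3 UMIs. In the 40 Hk2 cKO and 15 Hk2 fl/fl endothelial-rich barcodes with at most 2 UMIs of the microglial check genes, Isg15 had 78 and 3 UMIs, a log2 ratio of 2.76. Without Ly6c1, which is on the list and chose the barcodes, and Ly6a, 36 genes remained, and a barcode held UMIs of 4 to 29 of them (median 13) in Hk2 cKO and of 4 to 16 (median 9) in Hk2 fl/fl. Thinned to 2000 UMIs, the medians were 8 genes in Hk2 cKO and 5 in Hk2 fl/fl. The ranges were 4 to 25 in Hk2 cKO and 3 to 9 in Hk2 fl/fl, so they overlapped. The highest barcodes were in Hk2 cKO, which also had more barcodes to draw a maximum from, 56 against 26.

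**Figure D5:**
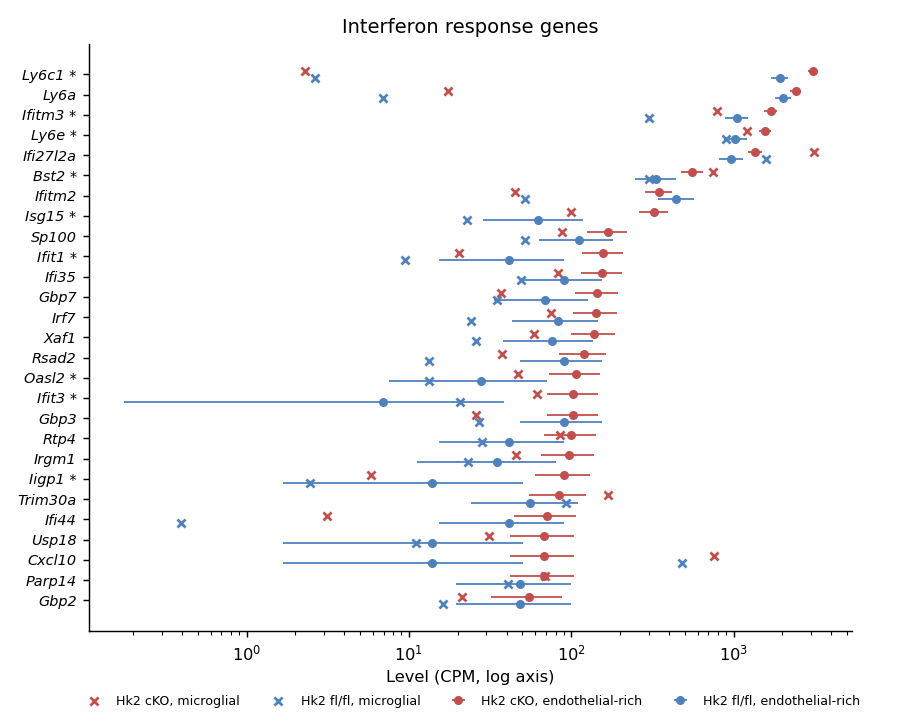
Level (CPM, log axis) of 27 measured interferon response genes in endothelial-rich barcodes (circles with 95% counting intervals) and microglial barcodes (crosses), Hk2 cKO above Hk2 fl/fl in each row. Asterisks mark the 9 of them called higher in Hk2 cKO, among them Isg15 at 322 against 62.4 CPM.

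Promoters of 3 of these genes are shown because the genes were called higher together and interferon acts on them through the interferon-stimulated response element. Ifit1, an RNA-binding relative of Ifit3 with 49 UMIs in Hk2 cKO and 6 in Hk2 fl/fl, was chosen after its values were seen. Each line gives the 250 bases before the RefSeq start (GRCm38.p6), 5′ to 3′ on the strand of the gene, with matches to its core in capitals: GAAA, any 2 bases and GAAA, or TTTC, any 2 bases and TTTC for the other strand.
Isg15, chr4:156200819-156201068, minus strand: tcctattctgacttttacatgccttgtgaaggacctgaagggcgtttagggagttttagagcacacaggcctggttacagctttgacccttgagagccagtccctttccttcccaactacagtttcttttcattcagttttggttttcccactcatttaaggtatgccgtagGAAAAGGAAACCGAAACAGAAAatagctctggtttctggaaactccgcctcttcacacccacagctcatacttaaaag
Ifit3, chr19:34583279-34583528, plus strand: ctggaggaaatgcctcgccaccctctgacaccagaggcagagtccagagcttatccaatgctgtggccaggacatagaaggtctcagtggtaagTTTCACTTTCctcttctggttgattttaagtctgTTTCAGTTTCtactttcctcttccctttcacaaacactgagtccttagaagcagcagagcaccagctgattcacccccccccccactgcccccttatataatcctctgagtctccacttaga
Ifit1, chr19:34640639-34640888, plus strand: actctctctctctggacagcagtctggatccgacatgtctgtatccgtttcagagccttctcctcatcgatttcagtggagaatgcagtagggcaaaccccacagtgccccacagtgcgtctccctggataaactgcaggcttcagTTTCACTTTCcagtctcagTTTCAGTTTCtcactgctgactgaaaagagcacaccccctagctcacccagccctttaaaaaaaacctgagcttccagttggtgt
The Isg15 window held 3 overlapping matches between 78 and 57 bases before the start, and the Ifit3 and Ifit1 windows held 2 each. Of the 26 measured genes of the list other than Ly6c1 and Ly6a, 19 had a window in the table and 12 of these held a match (63.2%), against 3.46% of all 27025 genes with a window. The match did not separate the called genes: 4 genes with a match were called and 8 were not, and 2 without a match were called and 5 were not. Among the endothelial-enriched genes 12 of 306 with a window held a match (3.92%), near the share of all genes. The ETS core AGGAAG, or CTTCCT for the other strand, a motif of endothelial transcription factors and many others, was in 35.9% of the endothelial-enriched genes with a window and 32.3% of all genes. A match is a description of letters and not of binding.

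Capillary genes leaned as far as the transporters, with which they share members. Of 13 measured 11 had ratios above 0, 4 were higher, none was lower and the median log2 ratio was 0.55, against 1.8% higher and 1.35% lower over all measured genes. Without Cxcl12, which chose the barcodes, 3 of 12 were higher (Tfrc, Ivns1abp and Hmcn1) and the median was 0.50. Ivns1abp had 390 CPM in Hk2 cKO and 208 CPM in Hk2 fl/fl, beside 305 and 324 CPM in microglial barcodes. Hmcn1, an extracellular matrix gene, had 484 and 284 CPM. Of the 13 measured capillary genes 11 were endothelial-enriched, a class with a median of 0.28 in which 25 of 416 genes were higher. Relative to the summed endothelial-enriched genes, none of Tfrc, Ivns1abp and Hmcn1 was called. Their log2 ratios were then 0.83, 0.60 and 0.46, while Cxcl12 stayed called at 0.59.

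Counts of the remaining endothelial lists are read against the same 1.8% and 1.35% of all measured genes. Of 15 measured Wnt and norrin genes 11 had ratios above 0 and the Wnt inhibitor Apcdd1 alone was called, at 387 CPM in Hk2 cKO and 222 CPM in Hk2 fl/fl. Of 21 measured receptors and targets of VEGF, angiopoietin, TGF-beta and Notch, Hes1, a target of Notch, alone was called, at 435 and 257 CPM. Flt1, at 3437 and 2664 CPM, and Kdr, at 642 and 493 CPM, both genes that chose the barcodes, were not. None of 12 measured junction genes was called, 7 ratios were above 0 and the median log2 ratio was 0.18. Without the 2 rule genes among them, 5 of 10 ratios were above 0 and the median was 0.08. Cldn5 had 6078 CPM in Hk2 cKO and 4835 CPM in Hk2 fl/fl, a ratio of 1.26 (1.15 to 1.37). It is one of the genes that chose the barcodes, so this ratio is a description. Of 11 measured basement membrane genes Lamb2 and Agrn were higher, Lamb2 at 148 and 41.6 CPM. Of 6 measured leukocyte adhesion genes Icam1, which binds leukocyte integrins, was higher at 135 CPM in Hk2 cKO and 41.6 CPM in Hk2 fl/fl, in 16 of 57 and 3 of 29 barcodes. Its microglial level of 312 CPM in Hk2 cKO and 280 CPM in Hk2 fl/fl would alone bring 49.9 and 70.05 CPM, or 78.5 and 90.8 CPM at the shares of the 22-gene list, and its part was not tested. H2-T23 was the 1 of 14 measured MHC class I genes called, at 284 and 132 CPM, while B2m had 1287 and 1256 CPM.

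Caveolae, flow, glycolysis and immediate early genes had medians near 0. None of 8 measured caveolae and fenestral genes was called, 4 ratios being above and 4 below 0, with Cavin1, the caveolar coat protein, at 193 CPM in Hk2 cKO and 173 CPM in Hk2 fl/fl. None of 8 measured flow and anticoagulant genes was called, and Klf2, the transcription factor raised by blood flow, had 1670 and 2116 CPM. Of 13 measured glycolysis genes 3 had ratios above 0 and 10 below 0, and the median log2 ratio was -0.10. Slc2a1, shared with the transporters, was the 1 called. Gapdh had 1216 CPM in Hk2 cKO and 1700 CPM in Hk2 fl/fl, and Ldha 403 and 534 CPM, neither called. Of 17 measured immediate early genes, which mark cell stress during dissociation among other things, Nfkbia alone was called, at 1280 and 839 CPM, and the median log2 ratio was 0.11. G2/M genes were low in endothelial-rich barcodes, at 245 CPM in Hk2 cKO and 479 CPM in Hk2 fl/fl, against 914 and 1063 CPM in microglial barcodes.

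The genes lower in Hk2 cKO were in part microglial. Of 21 measured microglia and macrophage genes 5 were lower and none was higher, against 1.35% lower and 1.8% higher over all measured genes, and the median log2 ratio was -0.43. Csf1r, the receptor microglia depend on, had 197 CPM in Hk2 cKO and 361 CPM in Hk2 fl/fl. Cx3cr1, the locus that drives the Cre, had 67.7 and 319 CPM in endothelial-rich barcodes, and 688 and 1284 CPM in microglial barcodes. The list summed to 11767 CPM in Hk2 cKO and 13770 CPM in Hk2 fl/fl, against 46707 and 42522 CPM in microglial barcodes. This went with the lower microglial RNA share of the Hk2 cKO barcodes, 16.0% against 25.0%, whose part in the calls was not tested.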

How the data were processed

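The deposited files hold raw UMI counts per gene and barcode for 1 library per genotype, made with Cell Ranger 3.1.0 and bcl2fastq on GRCm38, per the submitters' processing notes. The gene annotation was not stated there. No per-sample column was left unused.

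Barcodes were kept, selected and split into ranges as the report states. Their counts were summed per library and scaled to CPM over all 55450 gene rows. Intervals are exact at 95%, and a count of 0 allows up to 3 UMIs. No doublet caller was run. With 1 library per genotype no p-value is given, and library and genotype cannot be told apart. Both libraries shared 2 barcode sequences, none of them selected.

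The members and gene lists were chosen with earlier results of these data known. Named genes are the 8 rule genes, the 4 check genes, the hexokinases, Cx3cr1, Itgam and Ptprc, up to 5 measured genes of each list with the largest ratios and its 3 most abundant, the 10 highest and 10 lowest called endothelial-enriched genes, and the 15 most enriched. Outside this rule Nr2f2, Angpt2, Lyve1, Selp, Esm1, Gja5, Apln, Vwf, Plvap, Gkn3, Ackr1, Kcnj8, Abcb1a, Abcg2, Mfsd2a, Car4, Ifitm2 and Ifit1 were named after their values were seen. Some genes that the rule names are counted but not reported by name here.

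Kept barcodes had median depths of 11732 UMIs in Hk2 cKO and 9934 in Hk2 fl/fl, from 32896996 and 37476201 UMIs in all. Computation used pandas 2.3.3, scipy 1.17.1, matplotlib 3.10.9 and numpy 2.4.6 in Python 3.11.15, with edgeR 4.0.16 in R 4.3.3 for TMM factors only. The calling step was run on simulated counts with known ratios and counting error alone. For endothelial-rich barcodes it called 48% of 2-fold increases and 20% of 2-fold decreases. At 1.5-fold it called 12% of increases and 14% of decreases. A gene that was not called may therefore still differ.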

Additional observations from a re-analysis of the deposited data

Results flagged for a closer look

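In 4 genes the log2 ratio of Hk2 cKO over Hk2 fl/fl in endothelial-rich barcodes had the opposite sign to that in microglial barcodes, and the difference between these ratios was not tested. S100a6 had a log2 ratio of 6.95, from 38 UMIs in 5 barcodes in Hk2 cKO and 0 UMIs in Hk2 fl/fl, against -0.62 in microglial barcodes. The chemokine gene Ccl2 had -2.06, from 7 UMIs in Hk2 cKO and 14 in Hk2 fl/fl, against 0.70. Enpp2, which encodes autotaxin, had 1.55, from 51 and 8 UMIs, against -1.10, and 33 of the 51 UMIs came from 1 barcode. Ttr had 10.75, from 532 and 0 UMIs, against -3.00, and 531 of the 532 UMIs came from 1 barcode. Ratios of genes with 0 UMIs in Hk2 fl/fl depend on the 1 CPM added.

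Barcodes removed for more than 10% mitochondrial UMIs held further endothelial RNA. Of 105 removed in Hk2 cKO, 33 were endothelial-rich (31.4%, 22.7 to 41.2), and of 100 removed in Hk2 fl/fl, 14 were (14%, 7.87 to 22.4). Their differences were not tested.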

How the results depend on the processing

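No paired analysis was possible because there is 1 library per genotype, and leaving out a replicate was not possible either. The cause of the changes below was not tested.

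For all selected barcodes, the share of kept barcodes in Hk2 cKO (8.17%) was 12.1% with at least 3 of 8 genes, 6.04% with 5, 5.63% at no more than 5% mitochondrial UMIs, 3.50% thinned to 3000 UMIs and 2.48% in the endothelial-rich range. In Hk2 fl/fl (5.27%) it was 9.45% with 3 genes, 3.33% with 5, 1.71% thinned and 1.03% in that range. The microglial RNA fraction in Hk2 cKO (77.2%) was 80.2%, 73.4%, 83.9%, 30.5% and 16.0% under the same 5 settings. In Hk2 fl/fl (83.4%) it was 86.6% with 3 genes, 86.1% at 5% mitochondrial UMIs, 81.3% without the barcodes of highest totals, 40.7% thinned and 25.0% endothelial-rich. The 407 higher genes became 196 at 5% mitochondrial UMIs, 68 thinned, 64 with at most 2 microglial check UMIs, 30 relative to endothelial-enriched genes, 642 with per-barcode means, 233 at 2-fold and 64 endothelial-rich. The 141 lower genes became 30 thinned, 56 with at most 2 check UMIs, 7874 relative, 458 with per-barcode means, 53 at 2-fold and 48 endothelial-rich. The 34 calls among 38 enriched genes became 15 of 15 with 3 genes, 4 of 13 at 5% mitochondrial UMIs, 0 of 38 relative and 14 of 38 at 2-fold, since the enriched set is drawn anew from the barcodes kept. Hk2 (-1.98) was -2.38 thinned and -2.97 relative. Relative scaling, which lowered the median of all genes to -0.99, reversed the list medians of pan-endothelial (-0.18), junction (-0.69), transporter (-0.22), VEGF and related (-0.42), venous (-0.75), tip cell (-0.35), caveolar (-0.54), basement membrane (-0.44) and MHC class I genes (-0.52). Venous genes also reversed with at most 2 check UMIs (-0.27), caveolar genes in the endothelial-rich range (-0.14) and S phase genes with 5 genes (0.17). The higher share of calls was 74.3% in the main setting, 59.2% at 5% mitochondrial UMIs, 53.3% with at most 2 check UMIs, 58.4% with per-barcode means and 0.380% relative.

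All alternatives within the endothelial-rich range were chosen after seeing the data. Its share in Hk2 cKO (2.48%) was 0.302% at 5% and 3.54% at 20% mitochondrial UMIs, and 1.78% above 16000 CPM. In Hk2 fl/fl (1.03%) it was 0.283% at 5% and 0.495% above 16000 CPM. The microglial fraction in Hk2 cKO (16.0%) was 23.3% at 5%, 36.1% above 4000 CPM and 8.05% above 16000 CPM. In Hk2 fl/fl (25.0%) it was 19.5% without the highest totals, 19.0% thinned, 39.7% above 4000 CPM and 17.99% above 16000 CPM. With the whole microglial list in place of the 4 check genes the fractions were 25.2% in Hk2 cKO and 32.4% in Hk2 fl/fl. The 64 higher genes became 20 at 5% (6 Hk2 cKO and 7 Hk2 fl/fl barcodes), 33 thinned, 26 with at most 2 check UMIs, 21 relative and 20 above 16000 CPM. The 48 lower genes became 15, 26, 18, 206 and 20 under the same settings, and 25 at 2-fold. The 26 calls among 416 enriched genes became 12 of 92 at 5%, 14 of 317 thinned, 12 of 367 with at most 2 check UMIs, 41 of 416 with TMM, 17 of 416 relative, 12 of 416 at 2-fold, 16 of 368 above 4000 CPM and 9 of 373 above 16000 CPM. The higher share of calls was 9.25% with relative scaling. Medians reversed for junction (-0.12), leukocyte adhesion (-0.14), MHC class I (-0.15) and immediate early genes (-0.20) relative, for leukocyte adhesion above 16000 CPM (-0.30), immediate early above 4000 CPM (-0.11), venous at 20% (-0.36), caveolar with at least 50 UMIs (0.60) and glycolysis genes at 5% (0.12). Uaca had a log2 ratio of 0.036 above 16000 CPM, against -1.14. Of 18 settings, of which those asking for 3 or 5 genes leave this range as it is, Cxcl12 of the rule kept its call in 18, Isg15 in 17, Tfrc in 16, Slc2a1 and Ifit3 in 13, Slco1a4 in 11 and Icam1 in 9. Without the Ttr barcode 73 genes were higher and 47 lower, and Enpp2 had a log2 ratio of 0.11.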
